A study of Pimephales promelas and Coturnix japonica and Xenopus laevis with 724 samples.

Results

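A dose series of benzo[a]pyrene in rainbow trout (Oncorhynchus mykiss) embryos was examined, taking every library of the deposited count table for this species, life stage and chemical: 27 libraries of the 724 in the series. The series as a whole exposed fish, frogs and birds to 8 chemicals of environmental concern. The exposed groups carry the concentration labels D1, D3, D9, D27 and D81, called levels 1, 3, 9, 27 and 81 here, with 4 libraries each. The sample titles add the letters UG to the level number, and no unit beyond that is given. The 7 controls (CTRL) carry the chemical label dmso, a common carrier solvent; 3 of their titles bear the letter C and 4 the letter S. All libraries are labelled as total RNA of embryos at the stage els, the labels name no age or exposure time, and the replicate letters A to E do not say whether a library is 1 embryo or a pool. Each p-value below is thus set against library-to-library spread, part or all of which may be technical.

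Benzo[a]pyrene is a polycyclic aromatic hydrocarbon formed when organic matter burns incompletely. In vertebrates it binds the aryl hydrocarbon receptor, a transcription factor that moves to the nucleus and raises transcription of a battery of genes, among them those of the cytochrome P450 1 family. These enzymes oxidise the compound, clearing much of it and turning some of it into forms that bind DNA, and their induction in fish embryos is a long-used sign of exposure to such compounds.

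Whole-number read counts are given per identifier, which is an s2f code with no gene name. Of 24376 identifiers, 0 matched the available reference gene table, which is of another fish, so no identifier could be tied to a member of this pathway and the tissue label could not be checked against marker genes. At most 4 identifiers are named below for that reason. Library totals ran from 6853994 to 20059437 counts, with a median of 12063324. The 16780 identifiers that passed the low-count filter held 99.93% of all counts. Libraries 9-B and 27-D stood apart on the first principal component of log2 CPM (29.5 and 27.8, against 19.9 or less elsewhere; the component held 13.3% of the variance), and 81-B and control CA on the second (-29.6 and -27.2, with 11.1%). A library is written as its level and replicate letter.

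With all libraries, the number of identifiers that differed from the controls grew with the level up to 27 and was smaller at 81, but the order of 27 and 81 turned without 27-D (33 at 27 and 47 at 81) and without 27-E (29 and 43). At level 1, edgeR's quasi-likelihood test with Benjamini-Hochberg adjustment called 0 of 16780 identifiers (0%) at an adjusted p below 0.05, and DESeq2 called 0. Before adjustment, 1217 identifiers (7.25%) had p below 0.05 by edgeR at level 1, a count that includes those expected by chance. The same count was 803 at level 3, 723 at 9, 1632 at 27 and 948 at 81, so it did not follow the level. At level 3 the edgeR test called 2 (0.0119%), both higher than in the controls by 1.06 and 2.64 on the log2 scale. At level 9 it called 12 (0.0715%), all higher, with log2 fold changes of 0.57 to 3.94. At level 27 it called 64 (0.381%), 58 higher and 6 lower, and at level 81 it called 46 (0.274%), 35 higher and 11 lower. The count at 9 was 7 without 9-B, and that at 81 was 30 without 81-C and 29 without either 81-D or 81-E. All 5 comparisons share the 7 controls. The rises reached further than the falls and had larger medians, but the smallest rises were smaller in size than the smallest falls. At level 27 the rises ran from 0.29 to 4.80 with a median of 0.81. The falls there ran from -0.85 to -0.44 with a median of -0.52. At level 81 the rises ran from 0.29 to 4.36 with a median of 0.91. The falls there ran from -0.83 to -0.38 with a median of -0.60. In embryo RNA, a lower count from fewer cells of a type and one from less RNA per cell cannot be told apart.

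The threshold lay in a dense range of values. At level 27 the last identifier inside it had an adjusted p of 0.0492 and the first outside 0.0505, and at level 81 these were 0.0474 and 0.0505. The median log2 fold change of all identifiers tested was within 0.01 of 0 at every level, at -0.00249 for level 27 and 0.000792 for level 81. The scaling between libraries (TMM) centres most values near 0, so these medians cannot show whether all identifiers shifted together.

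**Figure D1:**
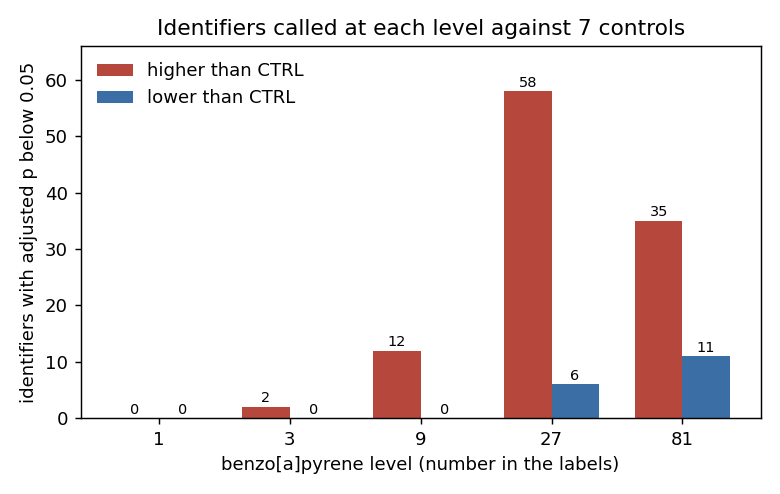
Number of identifiers with an adjusted p below 0.05 (y axis) at each benzo[a]pyrene level against the 7 controls (x axis, level number from the labels), higher in red and lower in blue. With all libraries, rises go from 0 at level 1 to 58 at level 27 and 35 at level 81, and falls appear at 27 (6) and 81 (11) only.

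Tests over all levels asked whether an identifier differed anywhere and whether it followed the level. An F test over the 5 level coefficients called 37 identifiers (0.221%). A straight line over the exposed levels, which are spaced by a factor of 3, called 32 (0.191%); no control enters the contrast, though the controls share the estimate of the spread, and 26 were called with the exposed groups fitted alone. Of the 32, 26 rose by 0.08 to 0.82 log2 units per 3-fold step and 6 fell by 0.10 to 0.22 log2 units per step in size. The curvature of the same 5 levels called 0 identifiers (0%) by edgeR, with 1023 at an unadjusted p below 0.05, and 1 by DESeq2.

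The strongest response was that of s2f_0000004012. Its normalised count, scaled to library size as CPM, was 25.2 in the lowest control, 40.7 in the median and 68.1 in the highest. It was 69.6, 77.7, 105 and 178 CPM at level 1, and 167, 195, 210 and 497 CPM at level 3. It was 272, 577, 826 and 957 CPM at level 9, then 826, 872, 1500 and 1570 CPM at level 27 and 696, 909, 945 and 980 CPM at level 81.

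No exposed library of this identifier fell within the range of the controls, even at level 1, where the lowest library stood just above the highest control. Among all identifiers tested, 1.22% had no overlap with the controls at level 27 and 1.26% at level 81. Each named identifier was chosen by its p at 27 or 81, which favours such a gap there. For s2f_0000004012, level 27 split into a lower pair, 27-B and 27-C, and a higher pair, 27-D and 27-E. The whole of level 81 lay at or near the lower pair. The log2 fold changes against the controls were 1.32 ± 0.31 (SE) at level 1, 2.64 ± 0.31 at 3, 3.94 ± 0.31 at 9, 4.80 ± 0.32 at 27 and 4.36 ± 0.32 at 81. Adjusted p-values of edgeR's quasi-likelihood test were 0.35 at level 1, 3.45e-05 at level 3, 5.3e-11 at level 27 and 7.98e-10 at level 81. Along the exposed levels it rose by 0.82 ± 0.08 log2 units per 3-fold step (edgeR adjusted p = 6.21e-07). The step from 27 to 81 was -0.44, with a 95% interval of -1.14 to 0.26 and an edgeR adjusted p of 0.839.

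**Figure D2:**
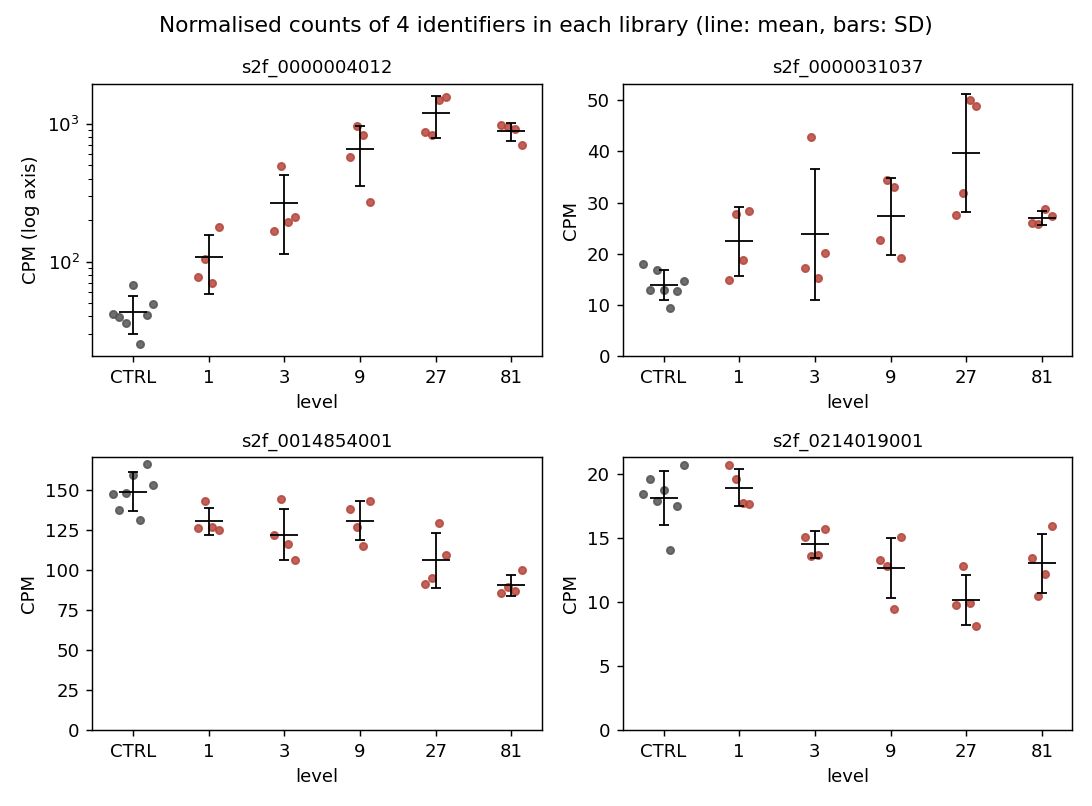
CPM of the 4 named identifiers in each library (points; controls grey, exposed red) with the mean and SD of each group, by level; the first panel has a log axis and the others start at 0. In s2f_0000004012 each exposed library lies above the highest control (68.1 CPM), and in both identifiers that rose the 2 highest libraries at level 27 stand above the whole of level 81.

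Of the identifiers that fell at both 27 and 81, s2f_0014854001 had the smallest p at 81. Controls ranged from 131 to 166 CPM with a median of 148. Level 1 held 126, 127 and 143 CPM and 1-E just below these, level 3 held 106, 116, 122 and 144 CPM, and level 9 held 115, 127, 138 and 143 CPM. Level 27 held 91.0, 94.7, 109 and 129 CPM, and level 81 held 85.4, 86.7, 89.6 and 99.9 CPM.

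Levels 1 to 9 overlapped the controls, whereas levels 27 and 81 lay wholly below them, by a narrow gap at 27. Of all identifiers tested, 1.22% had no overlap at 27 and 1.26% at 81, and the choice by p favours such a gap. The log2 fold change of s2f_0014854001 was -0.49 ± 0.09 (SE) at level 27 (edgeR adjusted p = 0.00438) and -0.72 ± 0.09 at level 81 (edgeR adjusted p = 1.53e-05). The trend over exposed levels was -0.13 ± 0.02 log2 units per step (edgeR adjusted p = 0.0042). The call at 27 was lost with only the 3 C controls (adjusted p = 0.12).

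Of the 76 identifiers called at 1 or more levels, all lay in the calls of 27 or 81: 34 were called at both, 30 at 27 and not at 81, and 12 at 81 and not at 27. The 34 make up 53.1% of the calls at 27 and 73.9% of those at 81. The sizes at 27 and 81 that follow chose these groups, so they are a description. The values at levels 1, 3 and 9 share the controls used in that choice, so they are no separate support. Of the 34 called at both, 29 were higher and 5 lower, and all 34 kept at least 0.5 of their log2 change from 27 to 81, with ratios of 0.681 to 1.47 and a median of 0.954. In the 29 that rose the median log2 fold change was 0.22 at level 1, 0.33 at 3, 0.63 at 9, 1.20 at 27 and 0.97 at 81. In the 5 that fell it was -0.11, -0.29, -0.31, -0.49 and -0.44 in the same order.

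The change from the controls was largest at level 27 in 52 of the 76 identifiers, at 81 in 23 and at 9 in 1. It was largest at level 1 or 3 in 0. All 76 were called at 27 or 81, and that choice favours a largest change at those levels. The counts of largest change and of order are thus a description. Only 11 of the 76 kept 1 order over all 5 levels, while 44 kept it from 1 to 27. Among the 64 that rose, 47 had their largest change at 27 and 16 at 81; among the 12 that fell, 5 had it at 27 and 7 at 81.

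**Figure D3:**
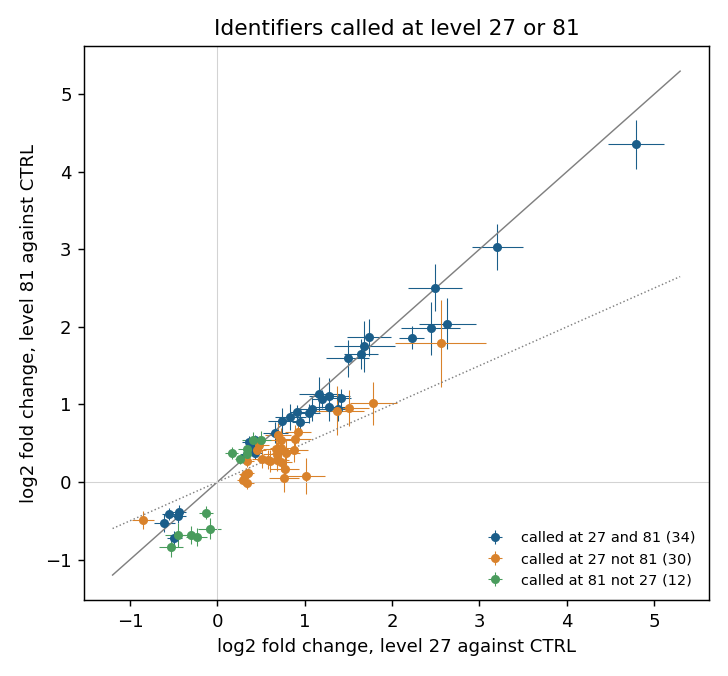
Log2 fold change against the controls at level 27 (x axis) and level 81 (y axis) for the 76 called identifiers, with standard errors as bars; blue were called at both levels, orange at 27 and not 81, green at 81 and not 27. The solid line marks equal change and the dotted line a ratio of 0.5; the 34 blue points have ratios from 0.681 to 1.47.

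The 30 identifiers called at 27 and not at 81 were 29 that rose and 1 that fell. Their median log2 fold change in those that rose was 0.18 at level 1, 0.27 at 3, 0.32 at 9, 0.69 at 27 and 0.37 at 81. By the ratio of 81 to 27, 16 of the 30 kept at least 0.5 of the change, 13 kept less, and 1 had the opposite sign at 81 (-0.00648 against 0.34). The choice by a call at 27 and none at 81 favours a smaller change at 81. The values at the other levels share the controls used in that choice. These medians and ratios are thus a description. Adjusted p-values at level 81 ran from 0.0505 to 1. The identifier at 0.0505 rose by 0.92 at 27 and by 0.65 at 81.

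A call at 27 without one at 81 does not show that the levels differ, so they were compared directly. For level 81 against level 27, edgeR's quasi-likelihood test called 0 of 16780 identifiers (0%), with a smallest adjusted p of 0.682 against 1151 identifiers with p below 0.05 before adjustment, and DESeq2 called 0 as well. None of the 76 identifiers passed that test. The comparison of level 27 with level 9 called 1 identifier (0.00596%), higher at 27 by 0.78 ± 0.12 log2 units (edgeR adjusted p = 0.0127), and this call was lost when 9-A, 9-C, 9-D, 27-D or 27-E was left out.

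Of those that rose at 27 and were not called at 81, s2f_0000031037 had the smallest p. Controls ranged from 9.4 to 18.1 CPM with a median of 13.0. Level 1 held 14.9, 18.8, 27.8 and 28.4 CPM, level 3 held 15.3, 17.2, 20.2 and 42.8 CPM, and level 9 held 19.2, 22.8, 33.1 and 34.4 CPM. Level 27 held 27.6, 31.9, 48.9 and 50.0 CPM, and level 81 held 25.8, 26.1, 27.4 and 28.8 CPM.

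All libraries at 9, 27 and 81 lay above the controls, and those at 81 lay close together, level with the lowest library at 27. The log2 fold change was 1.51 ± 0.23 (SE) at 27 (edgeR adjusted p = 0.000285) and 0.96 ± 0.23 at 81 (edgeR adjusted p = 0.0859). The difference of 81 from 27 was -0.55, with a 95% interval of -1.07 to -0.03 and an edgeR adjusted p of 0.7. The choice by p at 27 and no call at 81 favours a negative difference, and the interval makes no allowance for it. At 81 the identifier passed the threshold in 3 of 39 refits, among them that without library 3-B (edgeR adjusted p = 0.012). At 27 it missed the threshold with only the C controls (edgeR adjusted p = 0.085).

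The 1 identifier that fell at 27 and was not called at 81 was s2f_0214019001. Controls ranged from 14.1 to 20.7 CPM with a median of 18.5. Level 1 held 17.7, 17.8, 19.6 and 20.7 CPM, level 3 held 13.6, 13.7, 15.1 and 15.7 CPM, and level 9 held 9.44, 12.8, 13.3 and 15.1 CPM. Level 27 held 8.17, 9.81, 9.96 and 12.8 CPM, and level 81 held 10.5, 12.2, 13.5 and 16.0 CPM.

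Level 1 lay within the range of the controls, level 27 wholly below it, and level 81 overlapped it by 1 library, 81-E. The log2 fold change was -0.85 ± 0.12 (SE) at 27 (edgeR adjusted p = 0.000188) and -0.49 ± 0.12 at 81 (edgeR adjusted p = 0.0744). Without 81-E the value at 81 was -0.59 and passed the threshold (edgeR adjusted p = 0.0329). In all, the value at 81 passed it in 5 of 39 refits. Over the exposed levels it fell by 0.16 ± 0.03 log2 units per step (edgeR adjusted p = 0.00538).

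The 12 identifiers called at 81 and not at 27 were 6 that rose and 6 that fell. In the 6 that rose the log2 fold change was 0.29 to 0.54 at 81 and 0.16 to 0.50 at 27, with a median of 0.40 at 81 and 0.34 at 27. In the 6 that fell it was -0.83 to -0.40 at 81 and -0.53 to -0.09 at 27, with a median of -0.68 at 81 and -0.27 at 27. Their adjusted p-values at 27 ran from 0.0571 to 0.873. The choice by a call at 81 and none at 27 favours a smaller change at 27. Leaving out 81-C, 81-D or 81-E brought the count of 12 to 6, 6 and 3, and leaving out 27-D or 27-E to 20 and 21. The falls made up 6 of these 12, against 1 of the 30 called at 27 and not at 81; this split was not tested.

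Within level 27 the libraries were unlike. Averaged over the 29 that rose at 27 and were not called at 81, the log2 difference from the control mean was 0.503 in 27-B and 0.607 in 27-C, but 0.952 in 27-D and 0.867 in 27-E. At level 81 it was 0.332 to 0.448, and at level 9 it was 0.21 to 0.564. In the 29 that rose at both levels it was 1.08, 1.13, 1.51 and 1.63 in 27-B to 27-E, against 1.2 to 1.29 at level 81.

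Libraries 27-D and 27-E stood above level 81 on both averages, and 27-B and 27-C stood slightly below level 81 on the second. The calls that chose these identifiers used the same libraries of 27 and 81, which partly sets the order of the levels. The averages are thus a description. The titles of 27-D and 27-E share the mark P2, whose meaning is not given, while 27-B has P1 and 27-C has P3. At level 81, 81-B and 81-C also bear P2. On the first average they had 0.332 and 0.415, against 0.448 in 81-D (P1) and 0.386 in 81-E (P3). In 4 of the 6 groups the library highest on the first principal component was also the highest in the average of the 29 called at 27 and not at 81 (control SE, 1-C, 3-B and 27-D). This held in 3 of 6 for the 29 called at both, and in 2 of 6 for those that rose at 81 and were not called at 27. With 4 to 7 libraries a group, some such matches arise by chance, and the listed identifiers themselves enter the component. The part of that component in these values was not tested.

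The count of identifiers called at 27 and not at 81 rested on these libraries. It was 30 with all libraries, 6 without 27-D, 7 without 27-E, 57 without 27-B, and 37 without 27-C; leaving out control SC gave 13, and controls CB and SB gave 20 each. Without both 9-B and 27-D it was 6, and the count called at 81 and not at 27 was then 23 in place of 12. Level 81 held more calls than level 27 without 27-D (47 against 33), without 27-E (43 against 29) and without both 9-B and 27-D (49 against 32), and fewer without 27-B (44 against 92). With the P number as a term in the fit the count at 27 and not at 81 was 19, and the direct comparison of 81 with 27 still called 0.

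The share of called identifiers with their largest change at 27, which the choice by calls at 27 and 81 partly sets, moved in the same way. It was 68.4% with all libraries, 49.1% without 9-B and 27-D, 52.8% without 27-D, 44% without 27-E and 85.1% without 27-B. The count called at both levels was 34 with all libraries, 27 without 27-D and 22 without 27-E.

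**Figure D4:**
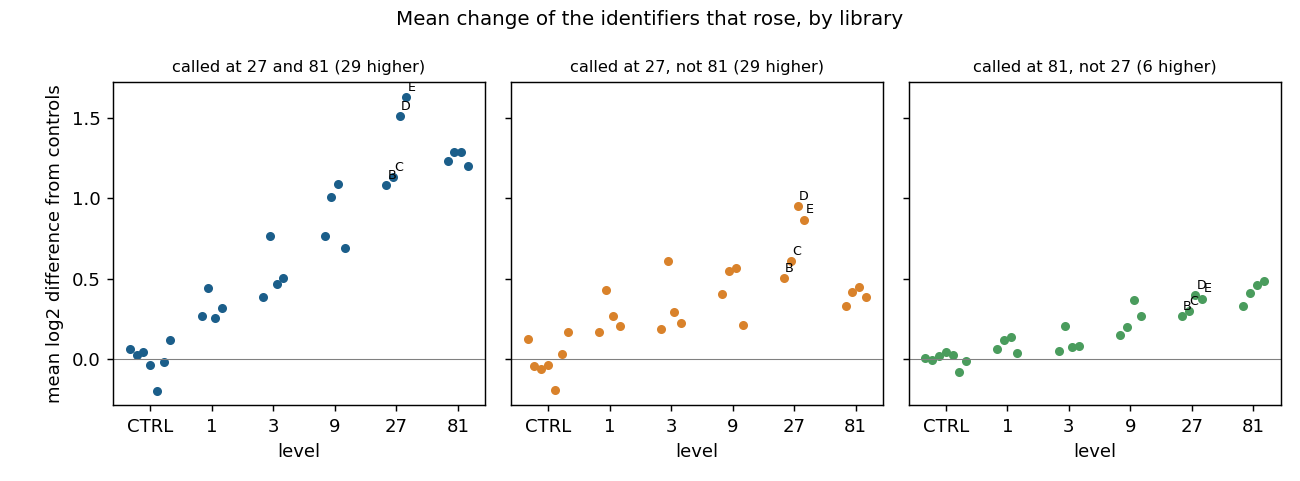
Mean log2 difference from the control mean (y axis) in each library (points, by level on the x axis) over the identifiers that rose and were called at both 27 and 81 (left), at 27 and not 81 (middle) or at 81 and not 27 (right); letters mark the 4 libraries of level 27. In the middle panel 27-D (0.952) and 27-E (0.867) stand apart from 27-B (0.503) and 27-C (0.607), and level 81 spans 0.332 to 0.448. The identifiers were chosen by calls at 27 and 81 in these same libraries, so the panels are a description.

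The contrasts at 27 and 81 set no library of level 1 or 9 against another group, although these libraries share the estimate of the spread in the fit. Level 9 against level 1, a comparison chosen after the data were seen, called 2 identifiers (0.0119%), higher at 9 by 1.34 and 2.61 log2 units. Fitting levels 1 and 9 alone gave 0 calls, leaving out 9-D gave 6, and DESeq2 gave 8. Of the 29 that rose at both 27 and 81, 27 were higher at 9 than at 1, with a median difference of 0.40. Of the 29 that rose at 27 and were not called at 81, 23 were, with a median difference of 0.15. Among all identifiers tested 48.7% were higher at 9, with a median difference of -0.00439. The identifiers of a list share the same libraries, so these counts are not of independent observations. By library, the average over those called at both was 0.253 to 0.444 at level 1 and 0.69 to 1.09 at level 9. Over those called at 27 and not at 81 it was 0.167 to 0.429 and 0.21 to 0.564, so these levels overlapped. Of the 2 identifiers called for 9 against 1, 1 was s2f_0000004012 (2.61 ± 0.37 SE, edgeR adjusted p = 0.000694).

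To compare 27 and 81 by contrasts with no library in common, level 27 was set against the 4 S controls and level 81 against the 3 C controls. Level 27 then called 42 of 16890 identifiers (0.249%), 38 higher and 4 lower. All 42 had the same direction at level 81 against the other controls, where 52.1% of all identifiers tested were higher, and 16 of the 42 were called there, against 0.112% of all tested. The median log2 fold change of the 38 that rose was 0.92 at 27 and 0.81 at 81. The 38 were chosen by their calls at 27, which tends to raise the median at 27 and not that at 81. These medians thus cannot show whether the levels differ. Both contrasts also share the estimate of the spread in the fit. The controls titled C and S differed in 0 of 16890 identifiers (0%) by edgeR's quasi-likelihood test, with a smallest adjusted p of 0.757 and 1018 at an unadjusted p below 0.05.

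The same identifiers were read in embryos of 2 other species exposed to benzo[a]pyrene, each with 5 controls of its own, at levels labelled MED and HIGH with 5 libraries each. In fathead minnow embryos at HIGH, 1.7% of the 14965 identifiers tested in both tables were called higher by edgeR and 0.0802% lower. Of the 29 that rose in trout at 27 and 81, 24 were tested in minnow and 12 of these rose (50%); the 24 had a median log2 fold change of 1.19, against 0.0166 over all. Of the 29 that rose at 27 and were not called at 81, 26 were tested and 5 rose (19.2%), with a median of 0.06; the 5 became 1 without 27-D or 27-E, 2 without 3-B, 3 without control SB and 8 without 81-D. Of the 6 that rose at 81 and were not called at 27, all were tested and 4 rose, with a median of 0.89. The 10 that fell in trout and were tested in minnow gave 0 calls there by edgeR, and 5 of them had a value below 0.

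All 3 groups that rose in trout thus held a larger share of minnow calls than the background, with the lowest share in the group called at 27 and not at 81; the difference between the groups was not tested. The 21 trout rises called in minnow at HIGH were 8.24% of the minnow rises among identifiers tested in both tables and 37.5% of the 56 trout rises tested there. At MED, where the background was 1.1%, 11 of the 24, 3 of the 26 and 3 of the 6 rose. In the 21, the median log2 fold change was 1.78 at MED and 1.88 at HIGH, and 17 were larger at HIGH. The 21 were chosen by their calls at HIGH, which tends to raise the values at HIGH and not those at MED. These numbers thus cannot show whether the minnow levels differ. Both comparisons also share the minnow controls.

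**Figure D5:**
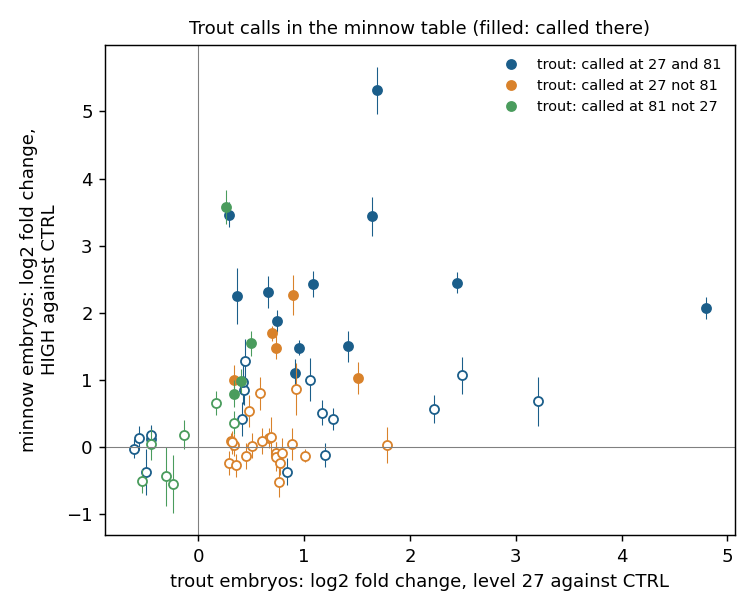
Log2 fold change in fathead minnow embryos, HIGH against CTRL (y axis, bars are standard errors), against that in trout embryos at level 27 (x axis), for the trout calls tested in both tables; filled points were called in minnow, and colours give the trout group. Of the 24 blue points that rose in trout 12 are filled, and of the 26 orange ones 5 are. Of the 10 that fell in trout, 0 are filled. Among all identifiers tested in both tables, 1.7% were called higher in minnow and 0.0802% lower.

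In African clawed frog embryos at HIGH the background was high, with 13% of 11589 shared identifiers called higher and 8.23% called lower. Of those that rose in trout, 9 of 16 called at 27 and 81 rose there, 4 of 10 called at 27 and not at 81, and 5 of 6 called at 81 and not at 27, while 2 of the 16 fell. At MED the background was 1.54%, and the counts were 7 of 16, 4 of 10 and 2 of 6. The libraries labelled HIGH in the frog table have titles with the letter M, so the order of the frog levels rests on the level label. Of the 34 trout calls tested in trout, minnow and frog, 13 were called in the same direction at HIGH in both other species: 6 called in trout at 27 and 81, 3 at 27 and not at 81, and 4 at 81 and not at 27. The share of all identifiers called at HIGH in both other species is not given here, so these counts have no background to be read against.

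The named identifiers differed in how they carried over. In minnow, s2f_0000004012 had 48.8 to 83.3 CPM in controls, 213 to 319 at MED and 232 to 318 at HIGH, a log2 fold change of 2.08 ± 0.16 (SE) at HIGH (edgeR adjusted p = 9.34e-07) with no overlap. In frog it had 7.33 to 11.3 CPM in controls, 12.9 to 216 at MED and 262 to 1190 at HIGH, a log2 fold change of 6.23 ± 0.61 (edgeR adjusted p = 1.58e-06), again without overlap. In minnow, s2f_0000031037 rose by 1.03 ± 0.23 at HIGH (edgeR adjusted p = 0.0292). Its HIGH libraries held 17.8, 19.1, 19.2, 24.8 and 50 CPM, so 1 library stood far above the rest, against 11.5 to 14.4 CPM in controls. At MED it held 22.8 to 29.6 CPM, a change of 0.99 ± 0.23 that was not called (edgeR adjusted p = 0.0513). In frog at HIGH it had 0.23 ± 0.17 (edgeR adjusted p = 0.393). In minnow, s2f_0014854001 had -0.37 ± 0.34 (edgeR adjusted p = 0.605), and s2f_0214019001 was tested in neither table.

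A trout embryo table for selenomethionine, an organic form of selenium, gave a reading of the same species under another chemical with other controls. At its HIGH level (4 libraries, 5 controls) 0.412% of 16734 shared identifiers were called higher. Of those that rose with benzo[a]pyrene, 2 of 29 called at 27 and 81 rose, 0 of 28 called at 27 and not at 81, and 2 of 6 called at 81 and not at 27, with medians of 0.11, 0.13 and 0.39. The median over all shared identifiers was 0.00397. Values above 0 were held by 18 of the 29, 23 of the 28 and 4 of the 6, against 51.3% of all. These differences from the background were not tested. There, s2f_0000004012 had 26.9 to 104 CPM in controls and 29.3 to 42.8 at HIGH (log2 fold change -0.46 ± 0.29 SE, edgeR adjusted p = 0.611), within the range of its controls.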

How the data were processed

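Rainbow trout embryo libraries were sequenced as paired-end reads after column extraction, per the labels' protocols. Counts deposited by the authors are whole numbers whose totals differ between libraries and were used as raw counts. The identity of the aligner, counter and reference was not given in the sources used here. For testing, the table was fitted whole: filterByExpr (minimum count 10, minimum total 15), TMM factors, edgeR 4.0.16 quasi-likelihood tests with all 6 groups in 1 fit (limma 3.58.1, R 4.3.3), Benjamini-Hochberg adjustment over all 16780 identifiers, called below 0.05, two-sided. DESeq2 1.42.0 was an alternative. A standard error is the log2 fold change divided by the square root of F; CPM uses TMM-scaled totals; log2 CPM adds a prior count of 2. Precision is limited by 4 libraries a level and by totals down to 6853994 counts.

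Groups come from the concentration labels. Named were, in each direction, the identifier called at 27 and 81 with the smallest p at 81, and the one called at 27 and not at 81 with the smallest p at 27. Members, lists and rules were chosen with earlier results of these data known. Lists of pathway and marker genes could not be used without gene names. Libraries of a group differed by at least 2.769 chi-square per degree of freedom (expected count of at least 5), so none was treated as a repeat. Minnow, frog and selenomethionine tables were fitted separately, each with its own controls. Every column of these 4 tables matched 1 sample.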

Additional observations from a re-analysis of the deposited data

Results flagged for a closer look

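A library far from the rest of its group, by Dixon's ratio, was looked for in 54 sets of values (totals, the first principal component, the named identifiers and the list averages in each group), and 3 were found; chance gives about 1 in 20. Library 1-C had 19.9 on the first principal component, where the other level 1 libraries had -8.59 to -5.46. The same library had 143 CPM of s2f_0014854001, against 127 or less in the others of level 1. Library 3-B had 497 CPM of s2f_0000004012, against 167 to 210 in the others of level 3; it is also the library highest on the first principal component within that level, whose part in this value was not tested.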

How the results depend on the processing

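No named identifier changed direction under any alternative run. The 4 lost or gained a call in 10 of 312 refitted values, some of which are given beside each. At level 81 a call was gained by s2f_0000031037 in 3 of 39 refits and by s2f_0214019001 in 5 of 39. At level 27 a call was lost by s2f_0000031037 and by s2f_0014854001 in 1 of 39 each. With RLE factors, the filter at a minimum count of 30 and robust dispersion, all counts stayed within 1.5 times their value. Without a low-count filter, calls at 27 and not 81 that were also called in minnow numbered 3 in place of 5. DESeq2 called 4 at level 3, 23 at 9, 75 over all levels, 53 at 27 and not 81, 8 for 9 against 1 and 1 for curvature. With only the groups compared, 27 against 9 and 9 against 1 called 0 each, 81 and not 27 held 7, and 3 were shared with minnow; the test over all levels has no such fit and was not run there. With only the S controls there were 38 calls at 27, 28 at 81, 13 at 27 and not 81, and 3 at 81 and not 27. With only the C controls there were 5 at level 9, 23 at 27, 16 at 81, 23 over all levels, 0 for 27 against 9, 13 at both, 10 at 27 and not 81, 3 at 81 and not 27, and 1 shared with minnow. With 27 against S controls and 81 against C controls, 26 were called at 27 and not at 81.

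Same-letter libraries of different groups did not deviate together more often than others. Of 59 same-letter pairs, 7 had a correlation above 0.1 (median -0.0162), against 50 of 241 pairs with different letters (median 0.00608). Of 27 libraries, 3 correlated best with their own letter. For the P number, 17 of 100 pairs with the same number had a correlation above 0.1 (median -0.0106), against 40 of 200 with different numbers (median 0.00633). With the letter as a replicate block, 17 were called at 27 and not 81, 5 at 81 and not 27, and 3 were shared with minnow.

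The next settings, and the share with the largest change at 27, were chosen after seeing the data. With the P number as a term, 19 were called at 27 and not 81, and 0 for 27 against 9. Without 9-B and 27-D there were 7 calls at level 9, 32 at 27, 49 at 81, 0 for 27 against 9, 6 at 27 and not 81, 23 at 81 and not 27, 1 shared with minnow, and 49.1% of called identifiers had their largest change at 27. Without 9-B, 27-D, 81-B and control CA there were 39 at 27, 48 at 81, 0 for 27 against 9, 10 at 27 and not 81, 19 at 81 and not 27, 1 shared with minnow, and 44.8% with the largest change at 27.

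Leaving out 1 library at a time, the calls ranged from 0 to 2 at level 1, 7 to 17 at 9, 29 to 92 at 27 and 29 to 50 at 81. They ranged from 0 to 1 for 27 against 9, 2 to 6 for 9 against 1, 0 to 1 for curvature, 6 to 57 at 27 and not 81, 3 to 21 at 81 and not 27, 22 to 35 at both, and 1 to 8 shared with minnow. The share with the largest change at 27 ranged from 44 to 85.1%. The comparison of 81 with 27 called 0 under every alternative run. The cause of these shifts was not tested. With 4 libraries a level, the median standard error of a log2 fold change at 27 among called identifiers was 0.133, so a call gained or lost near the threshold at this depth is no sign of a difference between levels.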
